A study of Saccharomyces cerevisiae with 15 samples.

Results

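The phosphate-starvation genes of *S. cerevisiae* described here were PHO84, PHO89, PHO5, PHO11, PHO8, SPL2, PHM6, PHM8, VTC1 and VTC3. They were chosen by symbol from the array's gene table, with the brightest probe set of each gene, and these 10 are among 5449 genes measured. Each had 1 probe set. Whole cell RNA came from 5 haploid S288C strains (MATα), each grown in biological triplicate and hybridized to 3 Affymetrix Yeast 2.0 arrays, 15 in all. The gcn5 null strain has GCN5 replaced by a hygromycin resistance gene, and both it and wild-type carried a control plasmid without a GCN5 insert. The other 3 strains kept the native GCN5 gene and carried gcn5-F221A, a catalytically inactive allele, on a centromeric plasmid behind mutant TEF promoters TEF3, TEF11 and TEF5, whose strengths relative to the native TEF promoter are 0.32, 0.68 and 0.95. All 5 strains grew in minimal glucose medium with yeast nitrogen base and G418 at 200 µg/mL, and no limit on phosphate is described. The question put to these genes was how their expression changed with loss of GCN5 and with graded amounts of the inactive protein.

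Yeast cells short of phosphate turn on the PHO genes through the transcription factors Pho4p and Pho2p. When phosphate is plentiful, the cyclin-dependent kinase Pho80p-Pho85p phosphorylates Pho4p and keeps it out of the nucleus, and the inhibitor Pho81p stops the kinase when phosphate runs low. The induced genes bring phosphate in (PHO84, PHO89), release it from organic compounds (PHO5, PHO11, PHO8, PHM8), store it as vacuolar polyphosphate (VTC1, VTC3) and adjust transport (SPL2). The PHO5 promoter is a classic model of chromatin opening by Gcn5p, the histone acetyltransferase of the SAGA complex.

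For 2 of these genes the study designed DNA primers, which show which sequences it followed outside the arrays. The PHO5 primer opens the promoter fragment that was placed before a fluorescent reporter in a separate experiment (capitals mark the SacI site used for cloning), and the SPL2 pair amplified its transcript in real-time PCR. The reporter was read in pho80 deletion strains, where the PHO5 promoter is constitutively active, and not in the strains described here.
PHO5 promoter, forward primer 17: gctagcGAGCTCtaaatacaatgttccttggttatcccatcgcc
SPL2 transcript, primer 27: acatcgcagtcacaatctctcagt
SPL2 transcript, primer 28: catgggcgagcttgcttaaa

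GCN5 itself averaged a log2 signal of 5.78 ± 0.05 in gcn5 null and 8.92 ± 0.06 in wild-type, and 11.50 ± 0.07, 11.90 ± 0.16 and 13.13 ± 0.06 at 0.32, 0.68 and 0.95 (SD, n = 3 each); its probe set reads the native and the plasmid copy together. Array medians lay between 5.997 and 6.068, and replicate arrays correlated at 0.977 or above. The 4 MATα marker genes had signals of 7.41 to 14.54 over all arrays, and all 4 were lower in gcn5 null. Means in gcn5 null and wild-type were 13.70 and 14.49 for MF(ALPHA)1 and 7.81 and 12.71 for MF(ALPHA)2. They were 7.43 and 9.64 for STE3 and 9.54 and 12.49 for SAG1. At 0.95 the means were 14.45, 12.35, 9.62 and 12.15 in the same order. In gcn5 null MF(ALPHA)2 and STE3 fell within the MATa marker range, so these genes do not tell the mating type there. The 5 MATa markers lay at 5.73 to 8.95, above the background of 5.205 set by the 95th percentile of the array's *S. pombe* probe sets, and so the arrays do not show them absent. The number of arrays limits precision: the median half-width of a 95% interval was 0.27 on the log2 scale for a difference between strains. The p-values set a difference against the spread between cultures of a strain, as limma estimates it from all 15 arrays. In RNA from whole cultures, fewer cells that express a gene and less RNA per cell cannot be told apart.

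Of the 10 genes, 5 were lower than wild-type in gcn5 null and at all 3 promoter strengths: PHO84, SPL2, PHM6, PHO11 and VTC3. A gene was called at a limma adjusted p under 0.05 over all 5449 genes. In gcn5 null 6 of the 10 genes were called lower and 0 higher, where 22.6% of all genes were called lower and 18.4% higher, and the median log2 difference of the 10 was -0.70, against -0.01 over all genes. At 0.32, 5 of 10 were called lower and 0 higher, where 0.165% of all genes (9 genes) were called lower and 1.43% higher. At 0.68 the count was 5 lower and 1 higher (all genes 7.05% lower and 5.34% higher), and at 0.95 it was 5 lower and 0 higher (all genes 5.23% lower and 7.25% higher). Medians of the 10 were -0.49, -0.50 and -0.56 at 0.32, 0.68 and 0.95. Only 7 of 5449 genes (0.128%) were called lower in all 4 comparisons, and 5 of them are these genes; the others were MGA1, which encodes a protein resembling heat shock transcription factors, and YFR012W-A. The 4 comparisons share the wild-type arrays. The 10 genes were chosen with earlier results of these data known, so their share among the 7 is a description and not independent support. PHM6 is among the 7 through a narrow call at 0.32, described below.

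**Figure D1:**
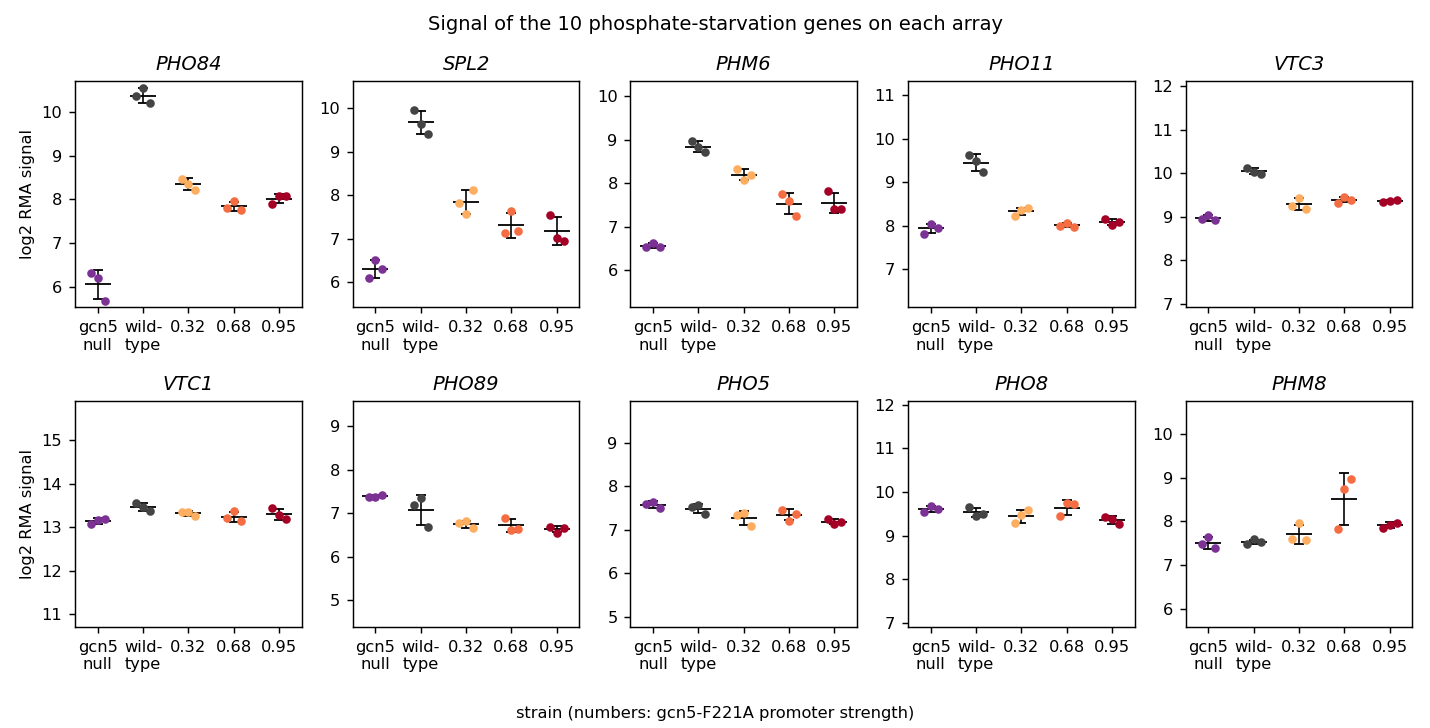
Log2 RMA signal of each gene on each array (points), with the mean and SD of 3 arrays (bars), for gcn5 null, wild-type and the 3 strains with gcn5-F221A, each labelled by its promoter strength; every panel spans the same number of log2 units. PHO84, SPL2, PHM6, PHO11 and VTC3 are highest in wild-type with no overlap, and PHM8 is highest at 0.68.

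PHO84 (YML123C), the high-affinity proton-coupled phosphate transporter of the plasma membrane, had the largest difference of the 10 genes in gcn5 null, at 0.32 and at 0.68. Its log2 signals were 6.30, 6.19 and 5.68 in gcn5 null, against 10.37, 10.56 and 10.22 in wild-type. The strains with gcn5-F221A gave 8.48, 8.37 and 8.22 at 0.32, then 7.81, 7.96 and 7.76 at 0.68, and 7.90, 8.07 and 8.09 at 0.95. All 9 of these arrays lay between the null and the wild-type arrays, with gaps on both sides. PHO84 was 20.1-fold lower in gcn5 null than in wild-type (log2 difference -4.33 ± 0.15, SE; limma adjusted p = 4.28e-10), the 2nd largest fall of 5449 genes. It was 4.08-fold lower at 0.32 (adjusted p = 1.1e-05), 5.82-fold lower at 0.68 (6.88e-07) and 5.14-fold lower at 0.95 (1.72e-06), and no other gene fell further at 0.32 or at 0.68. In order of level the strains ran gcn5 null, 0.68, 0.95, 0.32 and wild-type. The neighbours 0.68 and 0.95 overlapped and differed by 0.18 (adjusted p = 0.572), and the arrays of 0.95 and 0.32 did not overlap but their difference of -0.33 did not pass (0.274). Gcn5 null stayed 3.90-fold below 0.95 (1.42e-06). The lowest null array, at 5.68, was the lowest signal of the 10 genes and lay near the background of 5.205. GCN5, which is deleted in that strain, averaged 5.78 there. How far such low signals limit the size of the PHO84 fall was not tested.

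SPL2 (YHR136C), a small protein that restrains the low-affinity phosphate transporters during starvation, followed closely. Its signals were 6.09, 6.50 and 6.30 in gcn5 null, against 9.95, 9.64 and 9.41 in wild-type. With gcn5-F221A they were 7.82, 7.57 and 8.13 at 0.32, 7.13, 7.63 and 7.17 at 0.68, and 7.54, 7.02 and 6.95 at 0.95. Neighbouring strengths overlapped, but all 9 arrays were apart from both the null and the wild-type arrays. SPL2 was 10.4-fold lower in gcn5 null than in wild-type (log2 difference -3.37 ± 0.20; limma adjusted p = 1.49e-07). It fell 3.56-fold at 0.32 (0.00052), 5.14-fold at 0.68 (4.84e-05) and 5.66-fold at 0.95 (1.62e-05), the largest fall of all genes at 0.95. Its strain means were the only ones of the 5 to go down at every step from wild-type through 0.32 and 0.68 to 0.95. The step from wild-type to 0.32 passed the test, but no difference between promoter strengths did (0.95 against 0.32: log2 difference -0.67, adjusted p = 0.122). In gcn5 null SPL2 was a further 1.83-fold below 0.95 (0.00548).

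PHM6 (YDR281C), a phosphate-regulated gene of unknown function, had the largest fall from 0.32 to 0.68 of the 10 genes. Its signals were 6.55, 6.64 and 6.53 in gcn5 null and 8.97, 8.83 and 8.72 in wild-type. They were 8.34, 8.07 and 8.20 at 0.32, 7.75, 7.60 and 7.26 at 0.68, and 7.83, 7.41 and 7.41 at 0.95. The 0.32 arrays lay above those of both stronger promoters and below wild-type. PHM6 was 4.83-fold lower in gcn5 null (log2 difference -2.27 ± 0.14; limma adjusted p = 1.49e-07), 1.56-fold lower at 0.32 (0.0337), 2.47-fold lower at 0.68 (0.000396) and 2.45-fold lower at 0.95 (0.000147). It was the only one of the 10 genes called between strengths, where 2.39% of all genes were called lower at 0.68 than at 0.32 and 1.25% at 0.95 than at 0.32: the differences were -0.66 (adjusted p = 0.0408) and -0.65 (0.0341). PHO84 (-0.51, 0.0618) and PHO11 (-0.31, 0.0799) came near the threshold for 0.68 against 0.32. The calls between strengths were not repeated with arrays left out or other settings. The PHM6 call at 0.32 against wild-type was a narrow one. It was lost when any 1 of 9 arrays was left out (each of the gcn5 null, wild-type and 0.32 arrays in turn), with adjusted p over all 15 leave-one-out fits from 0.0171 to 0.155, and in 3 of 10 other alternatives: 0.122 in a fit of the 0.32 and wild-type arrays alone, 0.0637 with a further quantile normalization and 0.0523 without the 2 arrays of lowest estimated weight. Over these 10 it ran from 0.00672 to 0.122. The call at 0.68 was lost when only the arrays compared were fitted (0.0547).

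PHO11 (YAR071W) encodes a secreted acid phosphatase. Its probe set is one that Affymetrix marks as shared by several transcripts, and the near-identical PHO12 cannot be told apart from it. Signals were 7.81, 8.03 and 7.96 in gcn5 null, against 9.63, 9.48 and 9.24 in wild-type. At 0.32 they were 8.23, 8.35 and 8.40, at 0.68 they were 8.00, 8.07 and 7.97, and at 0.95 they were 8.15, 8.01 and 8.08. Here the arrays of the 2 stronger promoters overlapped those of gcn5 null. PHO11 was 2.85-fold lower in gcn5 null (log2 difference -1.51 ± 0.10; limma adjusted p = 2.82e-07), 2.17-fold lower at 0.32 (7.35e-05), 2.70-fold lower at 0.68 (3.75e-06) and 2.57-fold lower at 0.95 (5.58e-06). The difference between gcn5 null and 0.95 was -0.15 (95% interval -0.36 to 0.06, adjusted p = 0.274).

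VTC3 (YPL019C) and VTC1 (YER072W) are subunits of the vacuolar transporter chaperone complex, which makes polyphosphate. VTC3 had signals of 8.95, 9.05 and 8.92 in gcn5 null and 10.11, 10.03 and 9.98 in wild-type. It had 9.25, 9.44 and 9.18 at 0.32, 9.33, 9.45 and 9.39 at 0.68, and 9.34, 9.36 and 9.39 at 0.95. The strengths overlapped one another and lay between the null and the wild-type arrays. VTC3 was 2.10-fold lower in gcn5 null (log2 difference -1.07 ± 0.08; limma adjusted p = 7.53e-07) and 1.69-, 1.57- and 1.60-fold lower at 0.32, 0.68 and 0.95 (adjusted p = 0.000242, 0.00105 and 2e-04). When only the arrays compared were fitted, its calls at 0.32 and 0.68 were lost (0.059 and 0.0808). VTC1 was lower in gcn5 null (13.06, 13.17 and 13.18) than in wild-type (13.55, 13.47 and 13.37), without overlap, and fell by 0.33 on the log2 scale (SE 0.09, adjusted p = 0.00839). At 0.32, 0.68 and 0.95 its differences from wild-type were -0.15, -0.23 and -0.17, and none passed (adjusted p = 0.57, 0.0931 and 0.223).

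**Figure D2:**
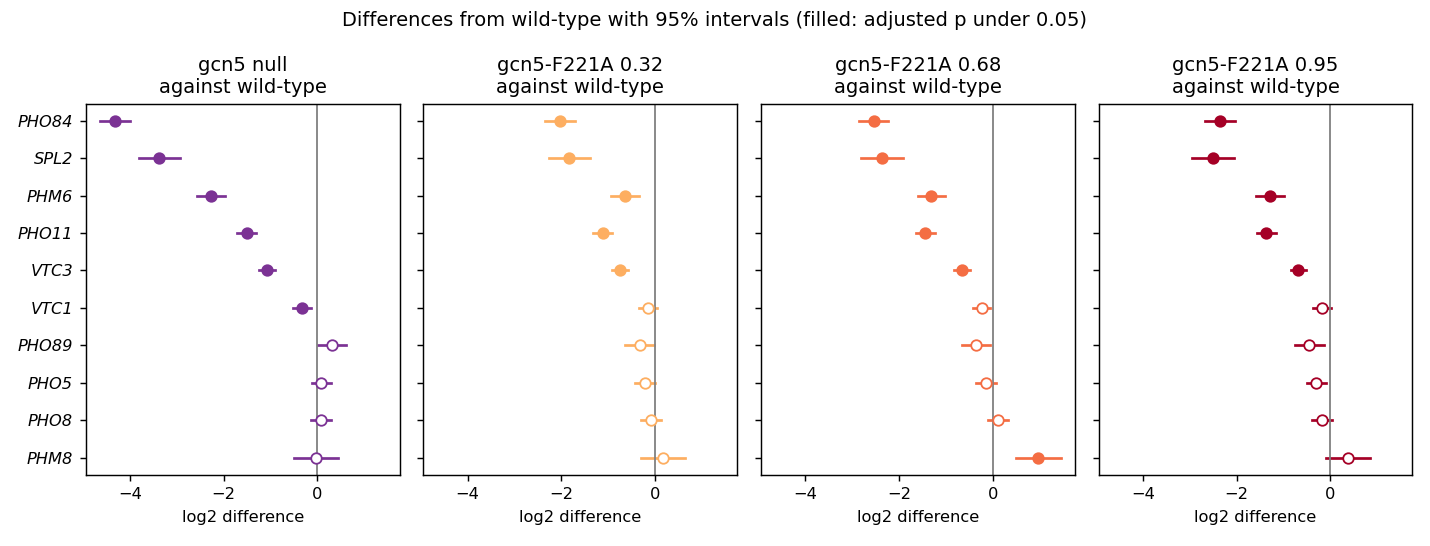
Log2 difference from wild-type (x axis) with its 95% interval for each of the 10 genes, in gcn5 null and in the 3 strains with gcn5-F221A, labelled by strength; filled points had a limma adjusted p under 0.05. The same 5 genes are filled on the left in every panel, from PHO84 (-4.33 in gcn5 null) to VTC3 (-1.07), VTC1 is filled in gcn5 null alone, and PHM8 at 0.68 is the one filled point on the right.

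For PHO84, SPL2, PHO11 and VTC3, most of the change with gcn5-F221A was present at the weakest promoter. At 0.32 the log2 difference reached 46.9% of that in gcn5 null for PHO84, 54.3% for SPL2, 74.1% for PHO11, 70.5% for VTC3 and 28.2% for PHM6. At 0.95 the shares were 54.6%, 74.2%, 90.2%, 63.6% and 56.9% in the same order. Shares divide by the null difference, and the null means of PHO84 (6.06), SPL2 (6.30) and PHM6 (6.57) were low, against a background of 5.205. The linear slope over strengths 0, 0.32, 0.68 and 0.95 was called negative for these 5 genes (all genes 7.27% lower), from -2.53 log2 units per unit of strength for SPL2 and -2.40 for PHO84 to -0.61 for VTC3. A straight line left a remainder that passed limma's F test for PHO84 (adjusted p = 0.00147), PHO11 (0.00552), VTC3 (0.00803) and SPL2 (0.0229) and not for PHM6 (0.162), where 3.98% of all genes passed. Shares and slopes both rest on the wild-type arrays. The log2 differences between gcn5 null and 0.32 use none of them, though their tests take the spread from all arrays. In that comparison the same 5 genes were called lower, with log2 differences of -2.30 for PHO84, -1.54 for SPL2, -1.63 for PHM6, -0.39 for PHO11 and -0.32 for VTC3 (all genes 23.3% lower). PHO89 (0.65) and PHO5 (0.31) were called higher there (all genes 17.9% higher).

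**Figure D3:**
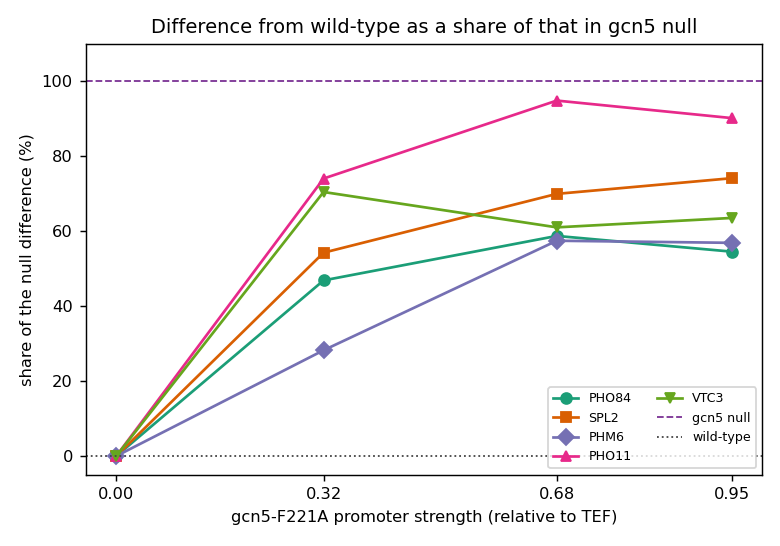
Difference from wild-type as a percent of the gcn5 null difference (y axis) against promoter strength (x axis), from strain means of 3 arrays with no error shown; the dashed line marks gcn5 null and the dotted line wild-type. PHO11 reaches 94.9% at 0.68, where PHO84 is at 58.8% and PHM6 at 57.5%.

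PHO89 (YBR296C), the sodium-coupled high-affinity phosphate transporter, did not follow PHO84. Its signals were 7.37, 7.37 and 7.42 in gcn5 null, against 7.19, 7.35 and 6.67 in wild-type, where replicate 3 stood below the other two. They were 6.77, 6.81 and 6.65 at 0.32, 6.88, 6.62 and 6.64 at 0.68, and 6.67, 6.55 and 6.66 at 0.95. The null arrays were above all 9 arrays with gcn5-F221A. Against wild-type PHO89 was not called in gcn5 null (log2 difference 0.32, limma adjusted p = 0.0845) or at 0.95 (-0.44, 0.0542), where 4 of 10 alternatives passed (0.00109 to 0.125). Against 0.95 it was called higher in gcn5 null, by 0.76 ± 0.14 (0.00112). Without wild-type replicate 3 it was called lower than wild-type at 0.32 (-0.53, 0.029), 0.68 (-0.55, 0.0172) and 0.95 (-0.64, 0.00286), and without replicate 2 it was called higher in gcn5 null (0.46, 0.0221).

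PHO5 (YBR093C), the main repressible acid phosphatase, had signals of 7.58, 7.65 and 7.49 in gcn5 null and 7.51, 7.57 and 7.37 in wild-type, which overlapped. At 0.32 they were 7.33, 7.39 and 7.09, at 0.68 they were 7.46, 7.21 and 7.36, and at 0.95 they were 7.24, 7.12 and 7.19, all below wild-type only at 0.95. PHO5 differed from wild-type by 0.09 in gcn5 null (95% interval -0.12 to 0.30, limma adjusted p = 0.497) and by -0.30 at 0.95 (0.0596). That last value passed in 5 of 10 alternatives: 0.0311 with median centring, 0.0181 with a further quantile normalization, 0.000206 with array weights, 0.0139 without the 2 arrays of lowest weight and 0.0425 with only the arrays compared. Over the 10 it ran from 0.000206 to 0.102. As for PHO89, PHO5 was called higher in gcn5 null than at 0.95, by 0.39 ± 0.10 (0.00753). In that comparison 2 of the 10 genes were called higher (all genes 13.6%), and 4 of them, PHO84, SPL2, PHM6 and VTC3, lower (all genes 19.5%).

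PHO8 (YDR481C), the vacuolar alkaline phosphatase, ranged from 9.26 to 9.74 over the 15 arrays and was called in none of the comparisons with wild-type. Its log2 difference was 0.08 in gcn5 null (95% interval -0.14 to 0.30) and -0.18 at 0.95 (-0.40 to 0.05).

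PHM8 (YER037W), which encodes a phosphatase of nucleotides and lysophosphatidic acid, was the one gene of the 10 called higher than wild-type. Its signals were 7.48, 7.64 and 7.38 in gcn5 null, against 7.49, 7.59 and 7.53 in wild-type. They were 7.61, 7.96 and 7.56 at 0.32, 7.82, 8.75 and 8.97 at 0.68, and 7.84, 7.92 and 7.97 at 0.95. Replicates 2 and 3 at 0.68 were the highest of the 15 arrays. PHM8 was 1.97-fold higher at 0.68 than in wild-type (log2 difference 0.98 ± 0.22; limma adjusted p = 0.0182). The call was lost without 0.68 replicate 2 (0.0505), 0.68 replicate 3 (0.0889) or wild-type replicate 1 (0.0743). It was also lost when only the arrays compared were fitted (0.16).

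Signals of general stress genes varied together with those of PHM8. The mean log2 signal of 22 genes of the Msn2/Msn4 stress response ran from 11.43 to 11.55 in gcn5 null and from 10.76 to 11.10 in wild-type, and from 10.44 to 11.57 at 0.32, from 11.02 to 12.00 at 0.68 and from 11.67 to 11.90 at 0.95. Over 15 arrays PHM8 correlated with this mean at r = 0.62, and at 0.83 after strain means were removed, a description of arrays that share their normalization. For the 5 genes that fell, r after strain means were removed was 0.016 for PHO84, -0.35 for SPL2, -0.66 for PHM6, -0.20 for PHO11 and 0.64 for VTC3. The part of the stress genes in these values was not tested. RNA quality was read from 8 control genes as 5′ minus 3′ signal. It was -2.90 ± 0.22 in gcn5 null and -3.44 ± 0.22 in wild-type, and -3.53 ± 0.38, -2.94 ± 0.46 and -3.11 ± 0.34 at 0.32, 0.68 and 0.95 (SD, n = 3 each). After strain means were removed r with this measure was 0.27 for PHO84, -0.88 for SPL2, -0.40 for PHM6, -0.60 for PHO11 and 0.056 for VTC3. It was -0.65 for VTC1, 0.045 for PHO89, 0.53 for PHO5, -0.69 for PHO8 and -0.0029 for PHM8. The part of RNA quality in their values was not tested.

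**Figure D4:**
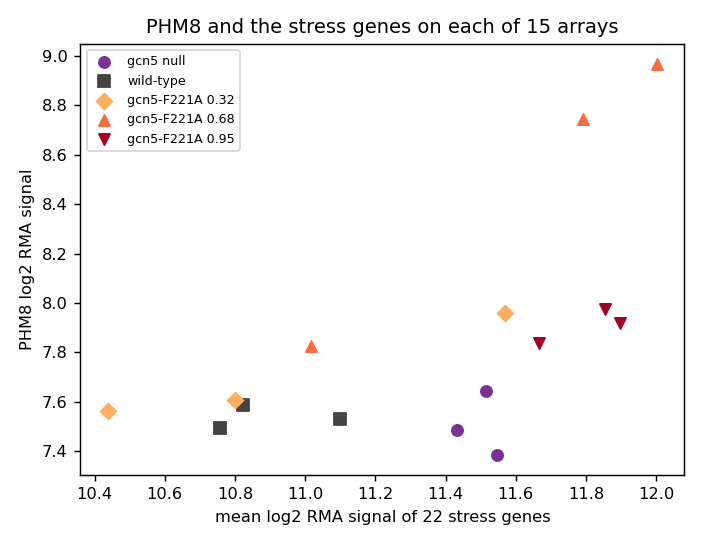
PHM8 log2 RMA signal (y axis) against the mean log2 RMA signal of 22 stress genes (x axis) on each of 15 arrays, by strain. The highest PHM8 signals, 8.75 and 8.97, are those of 0.68 replicates 2 and 3, while the gcn5 null arrays have stress means of 11.43 to 11.55 and PHM8 signals of 7.38 to 7.64.

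Other genes induced by low phosphate had smaller differences in gcn5 null than the 5 genes that fell, which were grouped by those falls. Of 10 listed, 9 were measured, and 3 were lower and 2 higher in gcn5 null (all genes 22.6% lower and 18.4% higher), with a median log2 difference of -0.17, against -0.01 over all genes. VTC2 and VTC4, further subunits of the polyphosphate polymerase, had log2 differences of -0.60 (limma adjusted p = 8.16e-05) and -0.42 (0.000926) in gcn5 null and of -0.34 (0.0124) and -0.47 (0.00218) at 0.95. GDE1, which breaks down glycerophosphocholine, was higher in gcn5 null by 0.99 (5.53e-06), close in size to the difference of VTC3 (-1.07) and opposite in sign. CTF19, a kinetochore gene (-0.65, 0.0112), and GIT1, a glycerophosphoinositol permease (0.59, 0.000358), were called in gcn5 null with mean signals under the *S. pombe* 95th percentile in gcn5 null and in wild-type. At 0.32 none of the 9 was called, and PHM7, of unknown function, was called for a positive slope (0.90, 0.0412).

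**Figure D5:**
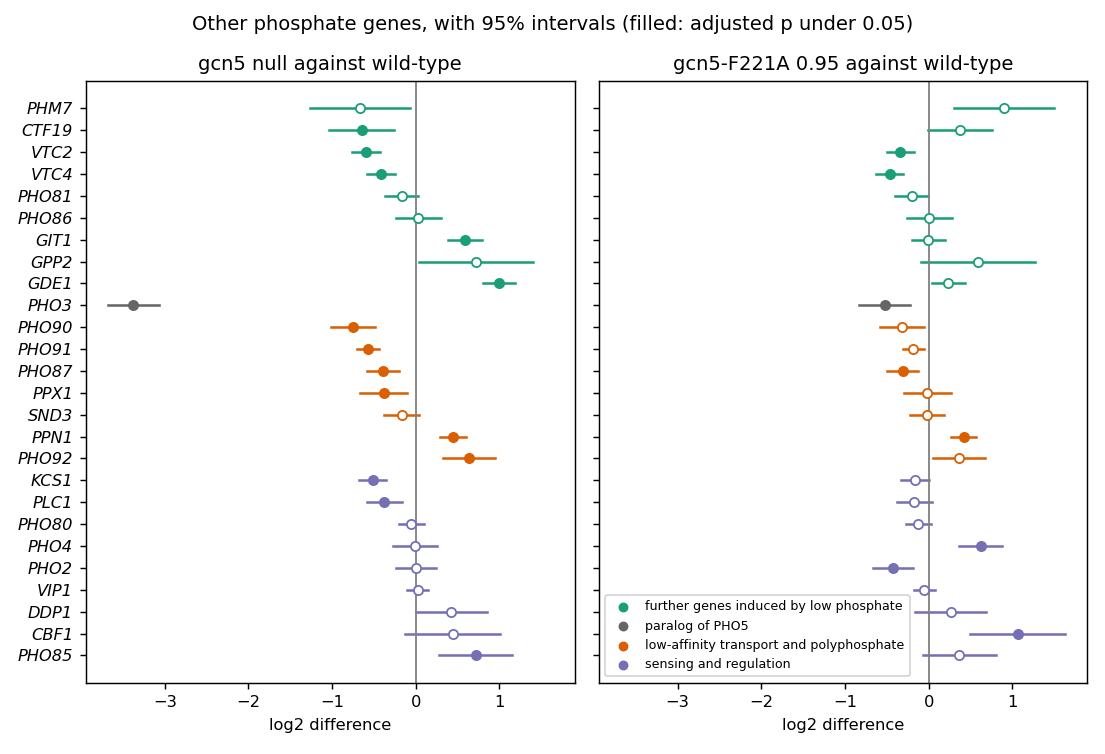
Log2 difference from wild-type (x axis) with 95% intervals for the other phosphate genes measured in gcn5 null (left) and at 0.95 (right), colored by list; filled points had a limma adjusted p under 0.05. PHO3 stands alone at -3.38 in gcn5 null and lies at -0.52 at 0.95.

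PHO3 (YBR092C), a constitutive acid phosphatase that is the paralog of PHO5 and its neighbour in the genome, behaved unlike PHO5. Its signals were 5.52, 5.26 and 5.16 in gcn5 null, against 8.71, 8.77 and 8.60 in wild-type. They were 8.26, 8.69 and 8.23 at 0.32, 8.14, 7.83 and 7.68 at 0.68, and 8.16, 8.16 and 8.18 at 0.95. The null arrays were far below all others, near the background of 5.205. PHO3 was 10.4-fold lower in gcn5 null (log2 difference -3.38 ± 0.14; limma adjusted p = 4e-09), and differed by -0.81 at 0.68 (0.00858) and -0.52 at 0.95 (0.0291).

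Of 9 genes of phosphate sensing and regulation, 2 were lower and 1 higher in gcn5 null (all genes 22.6% lower and 18.4% higher), and 1 was lower and 2 higher at 0.95 (all genes 5.23% lower and 7.25% higher). The largest called differences were those of CBF1, a transcription factor that shares the DNA motif of Pho4p, higher by 1.07 at 0.95 (limma adjusted p = 0.0194), and PHO85, the kinase, higher by 0.71 in gcn5 null (0.0127). PHO4 and PHO2, the factors that activate the pathway, are singled out after their values were seen. Neither was called in gcn5 null (0.945 for PHO4 and 0.989 for PHO2), while at 0.95 PHO4 was higher by 0.62 (0.00525) and PHO2 fell by 0.42 (0.0243). Of 9 genes of low-affinity transport and polyphosphate turnover 7 were measured, and 4 were lower and 2 higher in gcn5 null, against the same shares of 22.6% and 18.4% over all genes. PHO90, a low-affinity transporter, fell there by 0.75 (0.00045), and PHO92, an RNA-binding protein tied to PHO4 mRNA, was higher by 0.63 (0.00363), with a wild-type mean of 4.76, under the background of 5.205. At 0.32 no gene of either list was called.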

How the data were processed

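Total RNA of 15 cultures, 3 for each of 5 strains, was read on Affymetrix Yeast 2.0 arrays. The deposited values are log2 signals that the authors made by RMA, which corrects background, quantile-normalizes the arrays together and summarizes each probe set, so a gene's level is relative to the rest of its array. They were used as deposited. Probe sets were named through the array's gene table, 5498 for *S. cerevisiae*, and the brightest was kept for each of 5449 genes. PHO12, VTC5 and PPN2 were not analysed here. Locus tags and genome neighbours came from RefSeq R64, and PHO88 is there named SND3. The limma package (3.58.1, under R 4.3.3) gave a linear fit to all arrays with a mean per strain and 10 residual degrees of freedom, followed by two-sided moderated tests and Benjamini-Hochberg adjustment over 5449 genes at 0.05, and was tested on simulated data. Standard deviations are over 3 arrays and errors of differences are limma's SE. The 10 genes and the other lists were chosen with earlier results of these data known. Of the other lists, all called low-phosphate genes and up to 2 genes of the others with the largest called differences are named, with the 5 genes most like PHO84 and the 5 most like SPL2. Alternatives covered probe sets, dim genes, normalization, variance moderation, array weights, the replicate block, the dose scale, the arrays fitted and leaving out each array; leaving out both arrays of lowest weight was chosen after seeing the data. Plots were drawn with matplotlib 3.10.9.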

Additional observations from a re-analysis of the deposited data

How the results depend on the processing

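PHO84, SPL2 and PHO11 kept their direction and their side of the limma threshold in gcn5 null, at every strength and for the slope under all alternatives and each array left out. The count of the 10 genes called lower than wild-type became 8 at 0.95 and 8 for the slope with array weights (main counts 5 and 5), which added PHO89, PHO5 and VTC1, and 3 at 0.32 and 3 at 0.68 when only the arrays compared were fitted (main counts 5 and 5), which took away PHM6 and VTC3. With single arrays left out it ran 6 to 6 in gcn5 null, 4 to 5 at 0.32, 5 to 6 at 0.68 and 5 to 7 at 0.95 and for the slope. Some values near 0 changed sign: PHM8 in gcn5 null (-0.03) was 0.004 with median centring and ran from -0.1021 to 0.0271 with single arrays left out (0.0271 without gcn5 null replicate 3), and the PHO8 slope was 0.0069 with array weights.

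Counts over all genes depended more on the arrays. With array weights 187 genes were called at 0.32 (main 87), 1235 at 0.68 (675), 2281 at 0.95 (680), 2165 for the slope (853) and 3439 between gcn5 null and 0.95 (1803). With only the arrays compared they were 6 at 0.32, 4 at 0.68 and 560 for the slope. Without 0.32 replicate 3 and 0.68 replicate 1, the arrays of lowest weight, they were 1701 at 0.68, 1202 at 0.95 and 1475 for the slope. With single arrays left out they ran from 38 to 148 at 0.32, 72 to 1451 at 0.68, 379 to 947 at 0.95 and 425 to 1290 for the slope. The cause was not tested, except that fits of fewer arrays have fewer degrees of freedom.

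With the replicate block the counts of the 10 genes were 6 in gcn5 null and 5 at each strength, and over all genes 2098, 73, 505 and 560. The labels do not say what arrays of the same replicate number share. After strain means were removed, 5 of 15 arrays correlated best with an array of their own number, and 12 of 30 pairs of the same number had r over 0.1. The mean correlation was -0.070 within a number and 0.041 between numbers.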

Other observations

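Likeness of signals over the 15 arrays was measured for PHO84 and SPL2. For PHO84, among 511 other genes whose strain means spanned over 1 log2 unit, PHM6 (Pearson r = 0.95), SPL2 (0.95) and VTC3 (0.95) took ranks 1 to 3 and PHO11 (0.88) rank 11. PHM8 (-0.06) took rank 253. The means of VTC1, PHO89, PHO5 and PHO8 spanned less, so these genes were not ranked. The 5 nearest genes outside the 10, at ranks 4 to 8, were HMS2 (0.92), ISF1 (0.92), TAT2 (0.91), MSB1 (0.90) and FUR4 (0.90). For SPL2 the ranks 1 to 4 were PHO11 (0.95), PHO84 (0.95), PHM6 (0.94) and VTC3 (0.92), and PHM8 (-0.18) took rank 260. The 5 nearest others were HMS2 (0.88), YHC1 (0.85), ISF1 (0.85), SAP30 (0.85) and YMR230W-A (0.84). HMS2, a protein resembling heat shock factors, came first outside the 10 in both. Its strain means were 7.26 in gcn5 null and 8.27 in wild-type, and 7.99, 7.86 and 7.77 at 0.32, 0.68 and 0.95. TAT2, a tryptophan permease, and FUR4, a uracil permease, sit in the plasma membrane. These correlations describe arrays that share strains and normalization and carry no test.

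Among PHO84, SPL2, PHM6, PHO11 and VTC3 the 10 pairwise correlations ran from 0.84 to 0.95 over all arrays. After strain means were removed they ran from -0.14 to 0.73. These 5 genes were grouped by their falls in the same strains, so high values over all arrays follow from that choice. The other genes correlated with PHO84 over all arrays at 0.80 for VTC1, -0.25 for PHO89, -0.11 for PHO5, -0.21 for PHO8 and -0.06 for PHM8.

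Genes beside the 5 in the genome were called at shares near those over all genes. Of 9 neighbours in the RefSeq R64 order, 8 were measured; 2 were called lower in gcn5 null (ARO9 beside SPL2, with a log2 difference of -0.53 and a limma adjusted p of 0.0306, and CTF19 beside VTC3) and 2 higher (TUB3 beside PHO84, 0.23 and 0.0216, and ULP1 beside VTC3, 0.28 and 0.00502), where 22.6% of all genes were called lower and 18.4% higher. At 0.95 the limma fit called 0 of the 8, where 5.23% of all genes were called lower and 7.25% higher. PHO89 and its neighbour PCA1, a cadmium transporter, both had positive differences in gcn5 null and negative ones at 0.95: PCA1 was called higher in gcn5 null (0.45, 0.00164) and lower at 0.95 (-0.48, 0.00439). The neighbours and PCA1 were singled out after their values were seen.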
